A study of Bos taurus with 7 samples.

Results

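Genes of the cell cycle and of DNA replication were followed in the rumen epithelium of 7 Holstein calves, each measured on its own single-colour array. The set was a list of 34 gene symbols, and a probe belonged to it when the gene name in the scanner output equalled a symbol of the list. The array held 1 probe each for 31 of the 34, and 30 of these were bright enough to be tested among 12570 genes. MKI67, TOP2A and MCM2 were not analysed here. Of the calves, 3 were given forage (HAY, calves 9, 10 and 13), against 4 that were given none (CON, calves 8, 11, 12 and 14). The grouping was made 3 weeks after weaning, per the design text, and all calves were part of a study of forage and calf starter around weaning. The labels give neither age nor sex, and no other treatment. The RNA came from epithelium as a whole, so that a smaller share of dividing cells and less of these mRNAs per dividing cell cannot be told apart.

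The rumen wall is lined by a stratified squamous epithelium in which cells divide in the basal layer and are pushed outwards as they keratinise. A cell that commits to division in G1 switches on E2F-driven genes for origin licensing, nucleotide supply and DNA synthesis. The genes of G2 and mitosis follow later and are read through MYBL2 and FOXM1. Many mitotic mRNAs are made in G2 and lost again in G1, so that they are most abundant in cells near division. Cyclin D1 and E2F1 stand upstream of these waves. The list was split into 16 genes of G1 and S phase and 18 of mitosis, of which 15 each were tested.

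Sequences of 8 probes are shown, since these oligonucleotides are the measuring devices behind the pattern described here. They are given 5′ to 3′ as in the scanner files, with coordinates on UMD_3.1 and no base marked in capitals, and were chosen after the values were seen. The first 3 read a helicase subunit gene that loads at origins (MCM5 and MCM6) or a ribonucleotide reductase subunit gene (RRM2), and the fourth reads E2F1, which hardly varied. The last 4 read the mitotic genes CCNB2, BUB1B, TPX2 and AURKB. 
MCM5, chromosome 5, plus strand: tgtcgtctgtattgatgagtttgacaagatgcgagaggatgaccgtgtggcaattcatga
MCM6, chromosome 2, plus strand: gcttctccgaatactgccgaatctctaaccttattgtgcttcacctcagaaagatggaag
RRM2, chromosome 11, minus strand: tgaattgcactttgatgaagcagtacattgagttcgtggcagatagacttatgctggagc
E2F1, chromosome 13, minus strand: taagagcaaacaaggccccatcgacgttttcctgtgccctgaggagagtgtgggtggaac
CCNB2, chromosome 10, minus strand: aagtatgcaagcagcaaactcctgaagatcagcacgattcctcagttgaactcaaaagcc
BUB1B, chromosome 10, plus strand: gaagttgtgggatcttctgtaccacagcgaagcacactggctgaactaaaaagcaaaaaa
TPX2, chromosome 13, plus strand: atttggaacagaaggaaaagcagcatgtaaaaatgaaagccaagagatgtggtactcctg
AURKB, chromosome 19, minus strand: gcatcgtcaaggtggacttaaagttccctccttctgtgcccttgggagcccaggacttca

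The positions on UMD_3.1 are chr5:74001438-74001821 for MCM5, chr2:61852197-61852256 for MCM6, chr11:87468694-87468753 for RRM2 and chr13:63706226-63706285 for E2F1. They are chr10:51247956-51248015 for CCNB2, chr10:35925086-35925142 for BUB1B, chr13:61862815-61862874 for TPX2 and chr19:28448698-28448915 for AURKB. Each probe is 60 bases long, and those of MCM5 and AURKB are listed over spans of 384 and 218 bases, so that these matches are not continuous. The probe of BUB1B is listed over 57 bases, which is less than its length. The G and C content was between 40 and 55%, with 43.3% for RRM2, 45% for CCNB2 and 55% for E2F1 and AURKB. No exon or UTR annotation of UMD_3.1 was used.

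The cell cycle genes differed from calf to calf far more than between the feeding groups. HAY calf 13 and CON calf 14 carried the highest levels and CON calf 11 the lowest, in most members and most widely in the mitotic genes. Levels are log2 signals relative to the 75th percentile of each array, so that 0 is that percentile and 1 unit is 2-fold. Averaged over the 15 mitotic members, the deviation from the mean of the 7 calves was -0.05, -0.67 and 1.24 in HAY calves 9, 10 and 13, against -0.08, -1.36, -0.71 and 1.63 in CON calves 8, 11, 12 and 14. Over the 15 G1 and S phase members it was 0.08, -0.34 and 0.52 in HAY calves 9, 10 and 13, against 0.04, -0.64, -0.28 and 0.61 in CON calves 8, 11, 12 and 14. The 2 classes thus put calves 13 and 14 at the top, calves 8 and 9 near the mean and calves 10, 11 and 12 below it, and the mitotic deviations were the larger ones. Calves 13 and 14 were the 2 highest of the 7 in 12 of 15 G1 and S phase members and in 14 of 15 mitotic members, beside 11.9% of all genes tested. CON calf 11 was the lowest in 24 of 30 members, beside 10.6% of all genes. CON calf 14 was the highest in 23, beside 16.4% of all genes.

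**Figure D1:**
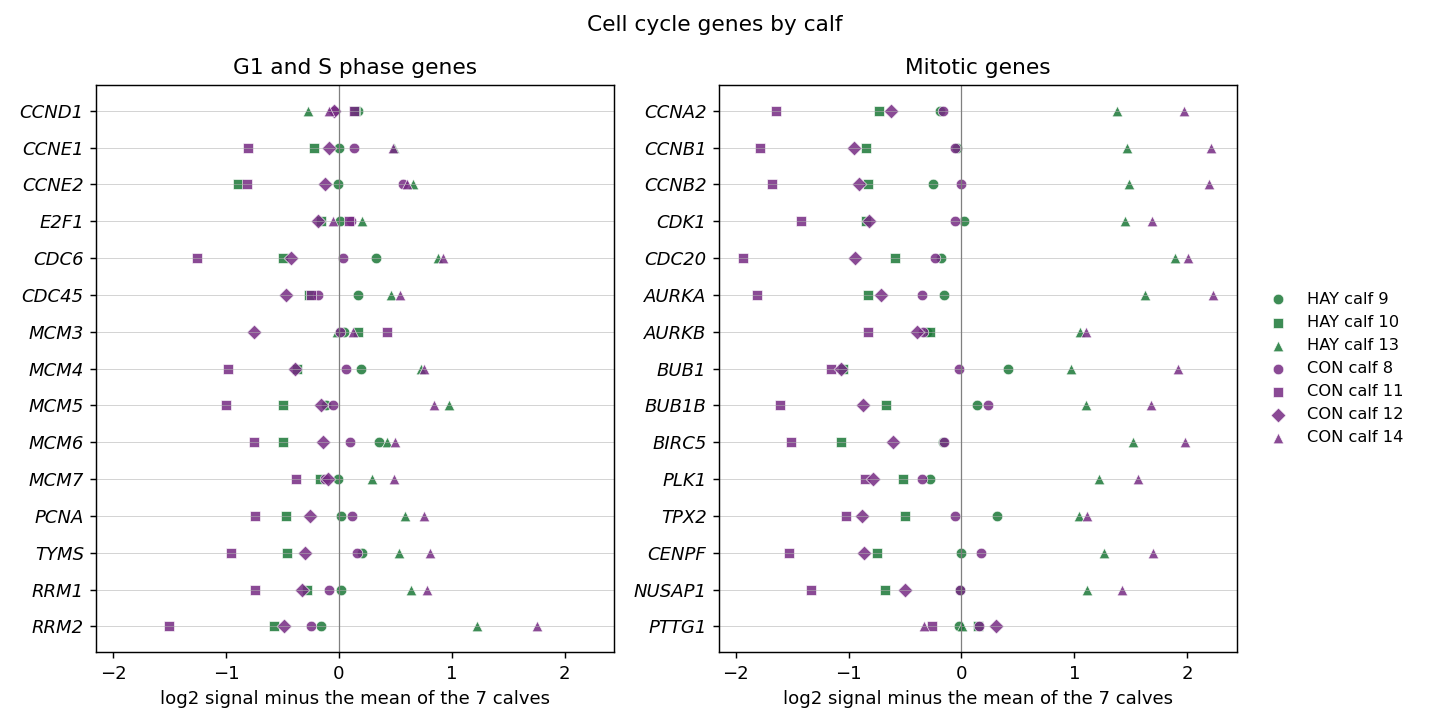
Log2 signal of each of the 30 tested members in each calf, as the deviation from the mean of the 7 calves (x axis), with genes on the y axis, HAY calves in green and CON calves in purple. The triangles, HAY calf 13 and CON calf 14, lie to the right for 26 of 30 genes, and the mitotic genes spread wider than those of G1 and S phase.

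Among the regulators of mitotic entry, cyclin B1 (CCNB1), the activating partner of the kinase CDK1, ranged 16.0-fold over the calves. Its log2 signal was -0.91, -1.72 and 0.59 in HAY calves 9, 10 and 13, against -0.94, -2.66, -1.82 and 1.34 in CON calves 8, 11, 12 and 14. The groups overlapped entirely, with the CON calves both above and below the HAY calves. CCNB2, the second B-type cyclin, whose probe is given above, stood at -1.56, -2.13 and 0.18 in HAY calves 9, 10 and 13, against -1.31, -2.98, -2.21 and 0.89 in CON calves 8, 11, 12 and 14. CDK1 itself had -1.35, -2.22 and 0.07 in HAY calves 9, 10 and 13, against -1.43, -2.79, -2.20 and 0.31 in CON calves 8, 11, 12 and 14. The kinase and both cyclins therefore ordered the calves alike at the extremes. Cyclin A2 (CCNA2), which acts in S phase and G2, ranged 12.2-fold, from -2.81 in CON calf 11 up to 0.81 in CON calf 14, with HAY calf 13 at 0.21.

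The mitotic kinases followed the same calves. AURKA, the centrosomal kinase, had the largest calf-to-calf spread of the members, with a within-group SD of 1.55 and a 16.4-fold range. Its signal was -1.64, -2.31 and 0.14 in HAY calves 9, 10 and 13, against -1.83, -3.29, -2.20 and 0.74 in CON calves 8, 11, 12 and 14. TPX2, the spindle protein that activates AURKA, had -1.70, -2.51 and -0.97 in HAY calves 9, 10 and 13, against -2.07, -3.03, -2.90 and -0.90 in CON calves 8, 11, 12 and 14. TPX2 had the smallest p of all members, and its groups still overlapped. AURKB, the kinase of the chromosomal passenger complex, and its partner BIRC5 (survivin) ranged 3.82-fold and 11.2-fold. AURKB stood at -2.72, -2.70 and -1.37 in HAY calves 9, 10 and 13, against -2.76, -3.24, -2.81 and -1.31 in CON calves 8, 11, 12 and 14, so that only calves 13 and 14 stood clear of the rest. PLK1, which drives centrosome maturation and mitotic exit, ranged 5.36-fold, with 3.26 in HAY calf 13 and 3.6 in CON calf 14 and no other calf above 1.76.

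The checkpoint and exit genes varied as widely. BUB1 and BUB1B, kinases of the spindle checkpoint, ranged 8.37-fold and 9.78-fold. BUB1 stood at -3.08, -4.54 and -2.53 in HAY calves 9, 10 and 13, against -3.51, -4.64, -4.56 and -1.58 in CON calves 8, 11, 12 and 14, and HAY calf 9 lay between calf 13 and the lower calves. CDC20, the activator of the anaphase-promoting complex, had -5.07, -5.48 and -3.0 in HAY calves 9, 10 and 13, against -5.12, -6.83, -5.83 and -2.89 in CON calves 8, 11, 12 and 14. Its 15.3-fold range was again set by calves 11 and 14, both CON. CENPF, a kinetochore protein, and NUSAP1, a spindle protein, ranged 9.33-fold and 6.75-fold with the same highest and lowest calves. UBE2C, the ubiquitin-conjugating enzyme of that complex, was too dim to be tested. It was well above background only on the arrays of calves 13 and 14, where its signal was 24.1 intensity units in HAY calf 13 and 27.0 in CON calf 14. On the other arrays it read 4.05 and 2.50 units (HAY calves 9 and 10) against 3.42, 3.06 and 3.76 units (CON calves 8, 11 and 12).

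PTTG1, securin, did not share the pattern. It had -5.75, -5.57 and -5.72 in HAY calves 9, 10 and 13, against -5.57, -5.98, -5.42 and -6.05 in CON calves 8, 11, 12 and 14, a 1.55-fold range. It was the only tested mitotic member in which calf 14 was the lowest of the 7 calves, and its probe was dim, though well above background on all arrays. CDC6 and CDC20 read lower still in CON calf 11, at 14.9 and 16.5 intensity units, against 29.5 for PTTG1. In HAY calf 13 they read 76.9 and 273 units, against 41.7 for PTTG1, its highest reading. How well the PTTG1 probe responds was not tested. E2F1 was dim as well, with 43.7 units in CON calf 12 and 82.3 in HAY calf 13.

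Of the S phase genes, RRM2, the inducible subunit of ribonucleotide reductase, had the widest range, 9.56-fold. Its signal was -2.17, -2.59 and -0.79 in HAY calves 9, 10 and 13, against -2.27, -3.52, -2.50 and -0.27 in CON calves 8, 11, 12 and 14. RRM1, the large subunit of the same enzyme, ranged 2.88-fold. It had 2.34, 2.03 and 2.96 in HAY calves 9, 10 and 13, against 2.24, 1.57, 1.99 and 3.1 in CON calves 8, 11, 12 and 14. Both subunits ranked calves 14 and 13 highest and calf 11 lowest, while the fold ranges differed. TYMS, thymidylate synthase, ranged 3.40-fold and PCNA, the sliding clamp of DNA polymerase, 2.81-fold. PCNA stood at 1.6, 1.12 and 2.17 in HAY calves 9, 10 and 13, against 1.70, 0.84, 1.33 and 2.33 in CON calves 8, 11, 12 and 14.

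The licensing and helicase genes had moderate ranges. CDC6, which loads the MCM helicase on origins, ranged 4.53-fold and had the smallest p of the G1 and S phase members. Its signal was -5.38, -6.21 and -4.83 in HAY calves 9, 10 and 13, against -5.67, -6.97, -6.14 and -4.79 in CON calves 8, 11, 12 and 14. Of the helicase subunits, MCM5 ranged 3.93-fold, MCM4 3.33-fold, MCM6 2.38-fold and MCM7 1.82-fold, each with calves 13 and 14 highest and calf 11 lowest. MCM5 had -3.19, -3.57 and -2.10 in HAY calves 9, 10 and 13, against -3.12, -4.07, -3.23 and -2.24 in CON calves 8, 11, 12 and 14. MCM3 stood apart from the other subunits, with 0.17 in HAY calf 10 and 0.03 and -0.03 in HAY calves 9 and 13, against 0.42 in CON calf 11, -0.76 in CON calf 12, and 0.00 and 0.12 in CON calves 8 and 14. Calf 11, lowest for the other subunits, was thus highest for MCM3. CDC45, which activates the helicase, ranged 2.0-fold.

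Of the genes that act in G1, cyclin D1 and E2F1 hardly varied, while the E-type cyclins did vary. The within-group SD of CCNE2 was 0.72. Cyclin D1 (CCND1), which answers to growth factors, had 2.03, 2.0 and 1.59 in HAY calves 9, 10 and 13, against 1.82, 1.99, 1.82 and 1.78 in CON calves 8, 11, 12 and 14, a 1.36-fold range with calf 13 lowest. E2F1, the transcription factor upstream of the S phase genes, had the smallest spread of all members, with a within-group SD of 0.156 and a 1.31-fold range. It stood at -4.93, -5.10 and -4.73 in HAY calves 9, 10 and 13, against -4.84, -4.85, -5.13 and -4.99 in CON calves 8, 11, 12 and 14, with calf 13 highest and calf 14 below calves 8, 9 and 11. The E-type cyclins, partners of CDK2 at S phase entry, had calves 13 and 14 highest, with ranges of 2.44-fold for CCNE1 and 2.93-fold for CCNE2. CCNE1 was lowest in calf 11. CCNE2 had -4.56, -5.44 and -3.89 in HAY calves 9, 10 and 13, against -3.98, -5.37, -4.67 and -3.95 in CON calves 8, 11, 12 and 14. HAY calf 10 was thus its lowest, and CON calf 8 was close to calves 13 and 14.

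The calf-to-calf spread was set beside that of all genes. The SD within groups had a median of 1.27 over the mitotic members and 0.58 over the G1 and S phase members, beside 0.27 over all 12570 genes. It lay above the 90 percentile mark of all genes for 14 of 15 mitotic members and 4 of 15 G1 and S phase members. Both feeding groups showed it, with a median SD over the mitotic members of 1.04 among the 3 HAY calves and 1.43 among the 4 CON calves. Of each member's sum of squares over the 7 calves, a median of 1.90% lay between the groups for the mitotic members and 2.68% for the G1 and S phase members, beside 18% over all genes.

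**Figure D2:**
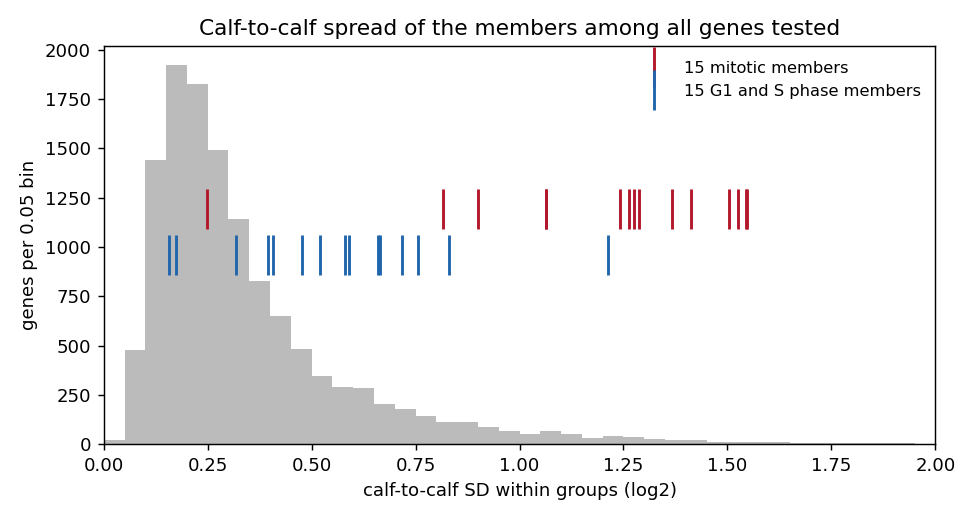
Histogram of the calf-to-calf SD within groups of all 12570 genes (grey, log2 units, genes per bin on the y axis, SD above 2 not drawn), with the SD of each member as a vertical tick at an arbitrary height. The mitotic members (red) had a median SD of 1.27 and the G1 and S phase members (blue) of 0.58, beside 0.27 for all genes.

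No member passed the test of HAY against CON. Of the 30, 29 had a higher mean in HAY and 1, CCNE2, a lower one (27 were higher with normexp background correction and with quantile normalization, 8 without HAY calf 13 and 10 without CON calf 11), and with limma over all genes none passed the adjusted threshold (lowest adjusted p = 0.744, TPX2) and none had an unadjusted p under 0.05. Among all genes 14% had such a p and 0.00796% passed the adjustment. A higher mean in HAY was seen in 6855 of all 12570 genes. In none of the 30 were the groups apart, while they did not overlap in 11.8% of all genes. The median log2 difference, HAY minus CON, was 0.27 over the mitotic members and 0.17 over the G1 and S phase members, beside 0.03 over all genes.

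For CCNB1 the HAY calves averaged -0.68 ± 1.17 (SD, n = 3) and the CON calves -1.02 ± 1.72 (SD, n = 4), a log2 difference of 0.34 (SE 0.96, limma adjusted p = 0.905). For CDC20, the member with the largest difference, the HAY calves averaged -4.52 ± 1.33 (SD, n = 3) and the CON calves -5.17 ± 1.67 (SD, n = 4), a difference of 0.65 (SE 0.97, limma adjusted p = 0.81). TPX2 had a difference of 0.50 (SE 0.57), CDC6 of 0.42 (SE 0.53, limma adjusted p = 0.77), PCNA of 0.08 (SE 0.38) and CCNE2 of -0.14 (SE 0.46). These intervals were wide where calves varied most: the 95% interval ran from -1.89 to 2.57 for CCNB1 and from -1.61 to 2.90 for CDC20. They were narrow for E2F1 (-0.31 to 0.38), CCND1 (-0.34 to 0.38) and PTTG1 (-0.37 to 0.52). A difference of 2-fold in either direction lay outside the interval for these 3 genes and inside it for CCNB1 and CDC20.

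**Figure D3:**
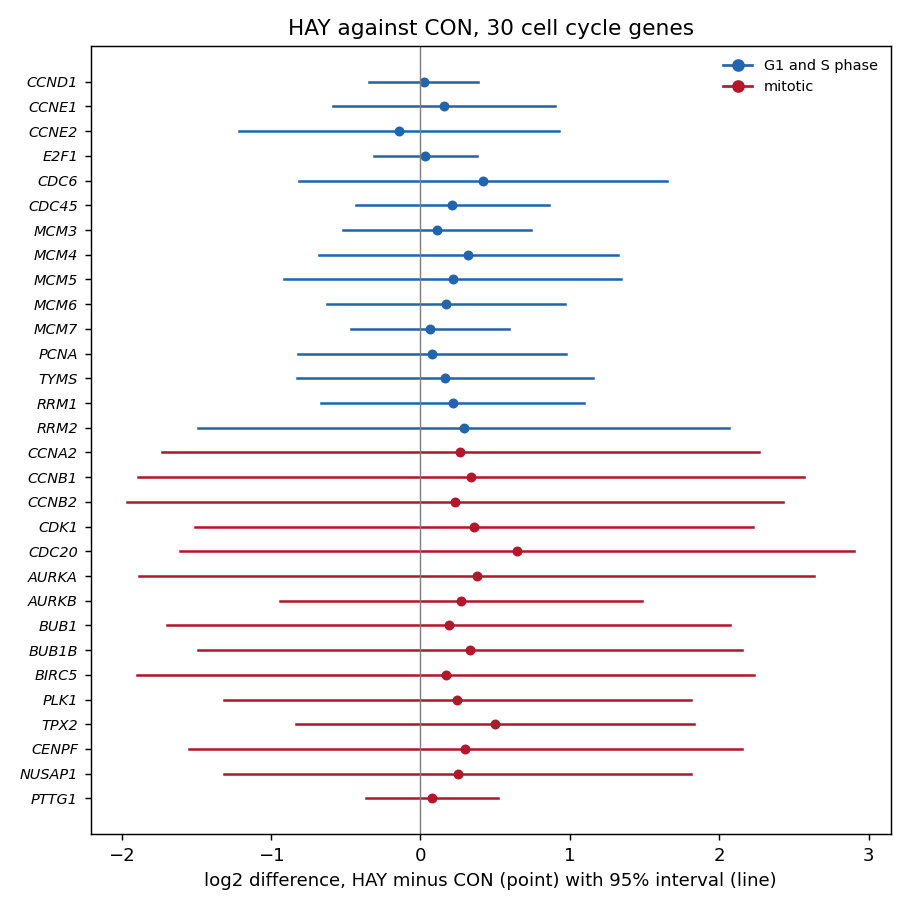
Log2 difference, HAY minus CON, of each tested member (point, x axis) with its 95% interval from the limma fit (line), G1 and S phase genes in blue above and mitotic genes in red below. Every interval includes 0, and the mitotic intervals are wide except that of PTTG1.

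The direction of the median differences rested on single calves, while TPX2, CDC6, CDC45 and MCM4 stayed higher in HAY whichever calf was left out. Without HAY calf 13 the median difference was -0.24 over the mitotic members and -0.04 over the G1 and S phase members, and without CON calf 11 it was -0.16 and -0.05. Without CON calf 14 it was 0.94 over the mitotic members and 0.36 over the G1 and S phase members, and still none of the 30 had an unadjusted p under 0.05 with limma. Without HAY calf 10 it was 0.76 and 0.40, and without CON calf 12 it was 0.10 and 0.09.

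Position on the slide touches this result. On the single slide, row 1 held HAY and row 2 held CON, and the row and the diet cannot be told apart. The arrays of calves 13 and 14 made up column 4 of the slide, and the part of that position in their high values was not tested. Column 3 held HAY calf 10 and CON calf 12, column 2 held HAY calf 9 and CON calf 11, and column 1 CON calf 8 alone. Within column 2 the median mitotic difference, HAY minus CON, was 1.44 and all 15 members were higher in HAY calf 9. Within column 3 it was 0.07 with 9 of 15 higher in HAY calf 10, and within column 4 it was -0.44 with 1 of 15, PTTG1, higher in HAY calf 13. For the G1 and S phase members the medians were 0.80, -0.08 and -0.08 in columns 2, 3 and 4. The 3 pairs therefore gave no common direction. With slide column as a block, which leaves calf 8 without weight, the medians were 0.28 (mitotic) and 0.22 (G1 and S phase), the lowest limma adjusted p over the members was 0.488, and the median mitotic SD was 0.71.

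**Figure D4:**
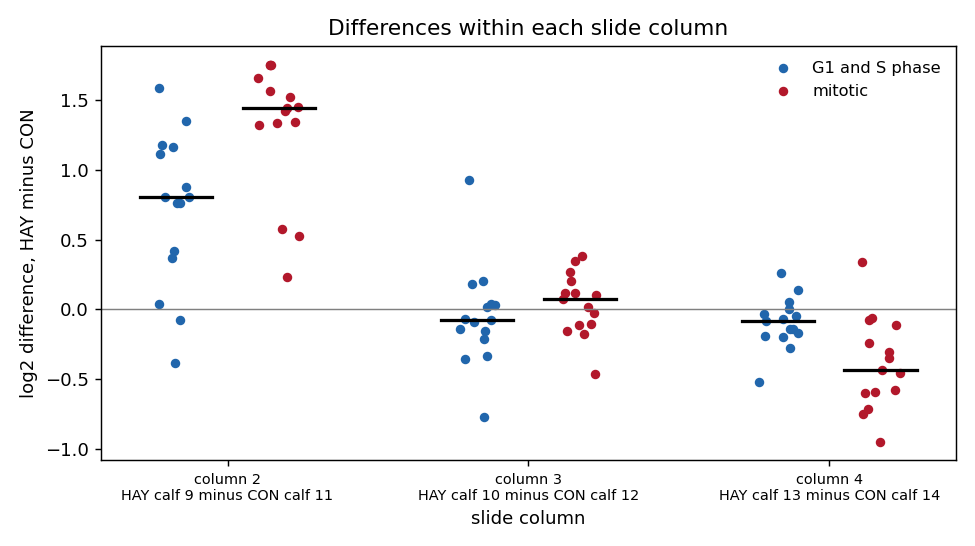
Log2 difference, HAY calf minus CON calf, of each tested member (y axis) within each of the slide columns that held both groups (x axis), with black bars at the medians. Mitotic medians are 1.44, 0.07 and -0.44 in columns 2, 3 and 4.

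Further genes of the same processes also had calves 13 and 14 highest and calf 11 lowest on average. Their lists were chosen with earlier results of these data known. Of 63 other mitosis genes 58 were tested, and calves 13 and 14 were the 2 highest in 54 of them. Their mean deviation was -0.04, -0.49 and 0.99 in HAY calves 9, 10 and 13, against -0.13, -1.01, -0.54 and 1.22 in CON calves 8, 11, 12 and 14. The 4 exceptions were TMPO, TACC3, KIF4A and CENPM, named after their values were seen. CDCA3, a trigger of mitotic entry, likewise named after its values were seen, had the largest range of the list, 13.0-fold, with 1.23, 0.66 and 2.91 in HAY calves 9, 10 and 13, against 1.04, -0.26, 0.49 and 3.44 in CON calves 8, 11, 12 and 14. FOXM1, a transcription factor of G2 and mitotic genes, had -5.03, -5.20 and -4.20 in HAY calves 9, 10 and 13, against -5.18, -5.71, -5.46 and -4.13 in CON calves 8, 11, 12 and 14.

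Of 52 other replication genes 51 were tested, and calves 13 and 14 were the 2 highest in 30 of them. Their mean deviation was 0.02, -0.18 and 0.46 in HAY calves 9, 10 and 13, against -0.07, -0.51, -0.15 and 0.44 in CON calves 8, 11, 12 and 14. The spread was smaller than in mitosis genes here too, with a median SD within groups of 0.33 against 0.97. Between the feeding groups, 52 of 58 mitosis genes and 43 of 51 replication genes had a higher mean in HAY (median differences 0.31 and 0.16), beside 6855 of all 12570 genes. None of either list had an unadjusted p under 0.05 with limma, beside 14% of all genes. The smallest p belonged to GINS4 (0.51, SE 0.23, limma adjusted p = 0.373), UNG (0.31) and TK1 (0.39) among replication genes and to TACC3 (0.50), KIF4A (0.31) and CENPM (0.23) among mitosis genes. On the lower side stood DSCC1 (-0.26), RPA2 (-0.13) and USP1 (-0.07), and ANP32E (-0.35), TMPO (-0.25) and CDCA5 (-0.16).

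**Figure D5:**
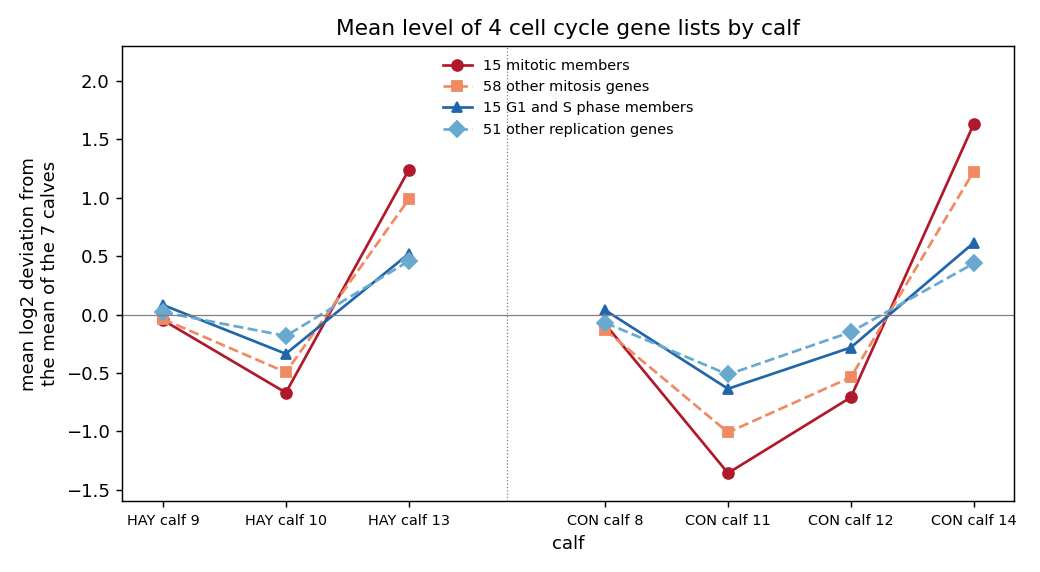
Mean log2 deviation from the mean of the 7 calves (y axis) for 4 gene lists in each calf (x axis), HAY calves on the left and CON calves on the right, with lines that only join points of 1 list. Calves 13 and 14 are highest and calf 11 lowest in all 4 lists, and the mitotic lists deviate most.

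The genes that set G1 and those that hold the cycle back deviated less. The G1 control list averaged 0.07, -0.10 and 0.04 in HAY calves 9, 10 and 13, against 0.14, -0.19, -0.15 and 0.18 in CON calves 8, 11, 12 and 14. The inhibitor list averaged -0.01, -0.06 and 0.19 in HAY calves 9, 10 and 13, against 0.01, -0.15, -0.02 and 0.05 in CON calves 8, 11, 12 and 14. Calf 11 was thus the lowest in both lists, calves 13 and 14 were the 2 highest for the inhibitors, and calf 14 was the highest for G1 control. Of the 9 tested genes of G1 control, calves 13 and 14 were the 2 highest in 1, and of 24 tested inhibitors in 5, beside 11.9% of all genes. MYC, which promotes growth and G1 entry, had a difference of -0.27 (SE 0.22), E2F3 of 0.40, SKP2 of 0.27 with HAY calf 10 left out because its spot was marked as an outlier, CCND3 of 0.09, CCND2 of -0.22 and CDK4 of -0.12. Of the 24 inhibitors and stress-response genes, 4 had an unadjusted p under 0.05, 2 in each direction, beside 14% of all genes, and none passed the adjustment. In these 4, and in no other of the 24, the groups did not overlap, beside 11.8% of all genes.

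RB1, the retinoblastoma protein that restrains E2F factors, had 2.39, 2.19 and 2.36 in HAY calves 9, 10 and 13, against 1.20, 1.16, 1.97 and 1.27 in CON calves 8, 11, 12 and 14. Every HAY calf was above every CON calf, by 0.92 in the mean (SE 0.22, limma adjusted p = 0.214). GADD45A, a stress-induced growth arrest gene, had 3.49, 3.33 and 3.39 in HAY calves 9, 10 and 13, against 2.48, 2.94, 2.97 and 2.53 in CON calves 8, 11, 12 and 14 (difference 0.67, SE 0.17, limma adjusted p = 0.225). In the other direction, CCNG1, a target of p53, had -0.05, -0.38 and -0.38 in HAY calves 9, 10 and 13, against 0.29, 0.19, 0.52 and 0.33 in CON calves 8, 11, 12 and 14 (difference -0.60, SE 0.15, limma adjusted p = 0.222). BTG1, an antiproliferative gene, had a difference of -0.70 (SE 0.22, limma adjusted p = 0.273), BTG2 of -0.28 and GAS1 of 0.44.

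CDKN1A, the CDK inhibitor p21, known to be induced by butyrate in cultured cells, had -2.42, -1.88 and -2.08 in HAY calves 9, 10 and 13, against -2.72, -2.17, -2.46 and -2.32 in CON calves 8, 11, 12 and 14 (difference 0.29, SE 0.19, limma adjusted p = 0.527). CDKN1B, the inhibitor p27, differed by 0.03 (SE 0.18). For both genes the groups overlapped, and in CDKN1B calves 13 and 14, highest for the mitotic genes, were the 2 lowest, at -2.01 and -2.18.

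The arrays differed little in the share of spots well above background, between 81.5 and 84.6%, and no member was saturated. Before scaling, the median intensity ran from 178 units in CON calf 12 to 236 in HAY calf 13, with 224 in CON calf 14. Basal keratinocyte markers, all 11 tested, averaged 1.20, 1.23 and 0.63 in HAY calves 9, 10 and 13, against 0.99, 1.13, 1.12 and 1.01 in CON calves 8, 11, 12 and 14, above the 75th percentile in every calf. The 11 tested suprabasal markers averaged 1.17 to 1.65 in HAY and 0.91 to 1.88 in CON. In the average of the basal markers, those of the dividing layer, calf 13 was thus the lowest and calf 14 near the middle. The single basal genes went different ways. Calves 13 and 14 were the 2 highest in 1 of the 11, KRT14 (6.31 and 6.04), named after its values were seen. Marker genes of other cells mostly had lower means in HAY, and none passed limma's adjusted threshold. At an unadjusted p under 0.05, 8 of 14 fibroblast, 7 of 11 smooth muscle, 3 of 11 endothelial and 10 of 11 myeloid genes were lower in HAY, beside 14% of all genes in either direction. The fibroblast genes averaged -2.11 to -0.33 in HAY and -0.78 to 1.0 in CON, and the smooth muscle genes -3.60 to -2.56 in HAY and -2.48 to -0.97 in CON. The endothelial genes averaged -3.27 to -1.74 in HAY and -2.03 to -1.29 in CON, and the myeloid genes -2.44 to -1.89 in HAY and -1.55 to -1.04 in CON. Calf 13 was the lowest of the 7 calves in each of these 4 lists, while calf 14 was the lowest CON calf in all 4, and the part of these cells in the cell cycle values was not tested. Of lymphocytes, which can divide, the 11 T and NK cell genes averaged -4.41 to -4.20 in HAY and -4.21 to -3.61 in CON, with CD4, and ITGAM of the myeloid genes, not passing the filter on dim probes. At an unadjusted p under 0.05 with limma, 4 of these 11 were lower in HAY and 0 were higher. Of the B and plasma cell genes, 1 was higher and 0 were lower at that level. The 7 B and plasma cell genes averaged -3.17 to -2.83 in HAY and -3.58 to -2.77 in CON, with calf 14 lowest. Calves 13 and 14 were the 2 highest in none of these 7 but in 2 of the 11 T and NK cell genes, CD3D and CD3G, chains of the T cell receptor complex that were named after their values were seen. CD3D had -3.53, -3.23 and -1.50 in HAY calves 9, 10 and 13, against -3.61, -3.48, -3.40 and -1.85 in CON calves 8, 11, 12 and 14. CD3G had -0.89, -0.98 and 1.0 in HAY calves 9, 10 and 13, against -1.53, -1.89, -0.20 and 0.06 in CON calves 8, 11, 12 and 14. CD3E, a chain of the same complex likewise named after its values were seen, was well above background on 0 HAY arrays and 3 CON arrays. It read -7.86 in calf 13, -7.40 in calf 10 and -7.31 in calf 14, too near the floor to rank these calves. In CD8A, also named after its values were seen, calves 13 and 14 were the 2 lowest, the opposite of CD3D and CD3G. They read -5.65 and -5.56, and every other calf read -4.81 or higher. CD8A was well above background on all arrays. The part of lymphocytes in the cell cycle values was not tested.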

How the data were processed

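Total RNA of 7 rumen epithelia (500 ng, labelled with cyanine 3) was read on 1-colour Agilent arrays. Per the file headers, the deposited scanner files give each spot's intensity after background subtraction and detrending inside the array, unscaled across arrays; the submitters' processing notes name Agilent Feature Extraction 9.5. A further deposited table carries log2 values made by the authors. They matched the log2 signals used here closely (largest SD of the differences on an array 0.000352). That table was used as an alternative. Control spots and outlier spots were left out, the spots of each of 15008 probes were averaged as log2 intensity, and the 75th percentile of each array was subtracted.

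Probes well above background on at least 3 arrays were kept, with 1 probe per gene name (the brightest). Names came from RefSeq accessions of assembly ARS-UCD2.0 for 11503 probes and otherwise from the files. All 31 member probes carried the same symbol in both. HAY and CON were compared with limma 3.58.1 in R 4.3.3 on all genes together, two-sided, adjusted by Benjamini-Hochberg, at a threshold of 0.05. The test was tried on simulated data first. SD within groups is the residual SD of that fit. Each array is a different calf, and their number limits the precision. Medians over members carry no test. The genes named by rule were all members on the array, up to 3 genes of smallest p per direction of each further list, and CDKN1A, CDKN1B, RB1, MYC and FOXM1; others are marked in the text as named after their values were seen. Members and lists were chosen with earlier results of these data known. Alternatives were normexp background correction with an offset of 50, median centring, quantile normalization, the deposited table, other filters on dim probes, all probes singly, slide column as a block, and leaving out each calf.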

Additional observations from a re-analysis of the deposited data

How the results depend on the processing

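No member passed the adjusted threshold, and none had an unadjusted p under 0.05, in the main processing or in any of the 15 alternatives. Genes past the adjusted threshold numbered 1 in the main processing, 4 with quantile normalization, 2 with slide column as a block, and 1 to 21 when each calf was left out (21 without CON calf 14, 7 without HAY calf 9). Genes at an unadjusted p under 0.05 numbered 983 (without HAY calf 13) to 2343 (without HAY calf 9), against 1754 in the main processing. Of these 1754, 853 were higher and 901 lower in HAY, against 1238 and 774 with median centring. The median SD within groups of the mitotic members was 0.71 with slide column as a block.

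The sign of a difference changed with quantile normalization for CCND1 (-0.031) and MCM7 (-0.020), with normexp for E2F1 (-0.10), PTTG1 (-0.15), CDKN1B (-0.016) and E2F3 (-0.055), and with the slide column for CCNE2 (0.028); the cause was not tested. Leaving out HAY calf 13 changed the sign of 21 of 30 members, and leaving out CON calf 11 that of 19. With each calf left out in turn, the differences ran from -0.058 to 0.16 for CCND1, -0.087 to 0.34 for CCNE1, -0.51 to 0.26 for CCNE2, -0.062 to 0.12 for E2F1, -0.12 to 0.27 for MCM3, -0.21 to 0.52 for MCM5, -0.057 to 0.47 for MCM6, -0.063 to 0.23 for MCM7, -0.19 to 0.34 for PCNA, -0.13 to 0.46 for TYMS, -0.041 to 0.51 for RRM1 and -0.24 to 0.91 for RRM2. They ran from -0.35 to 0.96 for CCNA2, -0.30 to 1.13 for CCNB1, -0.44 to 0.99 for CCNB2, -0.26 to 0.97 for CDK1, -0.11 to 1.41 for CDC20, -0.33 to 1.17 for AURKA, -0.18 to 0.68 for AURKB, -0.24 to 0.85 for BUB1, -0.16 to 0.94 for BUB1B, -0.54 to 0.85 for BIRC5, -0.29 to 0.80 for PLK1, -0.24 to 0.91 for CENPF, -0.24 to 0.76 for NUSAP1 and -0.023 to 0.19 for PTTG1. They stayed positive for TPX2 (0.12 to 0.94), CDC6 (0.06 to 0.79), CDC45 (0.045 to 0.42) and MCM4 (0.041 to 0.62). For CDKN1B the range was -0.079 to 0.12, for RPA2 -0.28 to 0.039, for USP1 -0.18 to 0.015 and for CDCA5 -0.37 to 0.27. Calf numbers pair no samples across the groups; the fit with slide column as a block is the one that sets HAY and CON arrays side by side.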
